A study of Homo sapiens and Mus musculus with 4 samples.

Results

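Of the 860 ATF4 peaks that the KG1a list holds on chromosomes 1 to 22, 235 were centred no more than 10 kb from either end of a protein-coding gene, and these 235 peaks are described here. The centre is the middle of the peak's interval, and an end is the lowest or the highest base of a gene in the RefSeq annotation of GRCh38. KG1a is a human acute myeloid leukaemia line, grown with 20% fetal bovine serum. The list was made from 1 chromatin library precipitated with an antibody to ATF4 (Abcam, ab184909) and 1 input library taken without antibody. No genotype or treatment differed between them, so there is no contrast between conditions and no replicate error. The same series holds 83088 peaks of C57BL/6 mouse bone marrow, also from 1 precipitated and 1 input library, which were counted but not placed. The rule used position alone, so the number of peaks near ends is fixed by it, while their split by distance, kind of end, gene function, width and promoter sequence is not. The list gives positions only, with no height, score or read depth, and every interval below is a Wilson 95% interval on a share of peaks or genes and covers counting error only. No test of a difference was made.

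ATF4 is a bZIP transcription factor. Its protein is made when the kinases that sense amino acid shortage, unfolded proteins or other stress slow general translation, and it binds DNA as a dimer, often with a C/EBP protein. The site of such dimers, the C/EBP-ATF response element or CARE, joins a C/EBP half-site to an ATF half-site. Genes known for it encode enzymes of amino acid synthesis, amino acid transporters, tRNA synthetases and regulators of the stress response.

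A CARE with 1 free base (letters TGATGNAA, either strand) was found in the RefSeq promoters of 5 genes with a peak centre within 1 kb of the RefSeq start, and in each of the 5 it lay inside the peak. These promoters run from 250 bases before to 50 after the start and are printed because they carry both a peak and this motif. They belong to CHAC1, which encodes an enzyme that degrades glutathione, HERPUD1, which acts in protein degradation at the endoplasmic reticulum, the alanyl- and threonyl-tRNA synthetase genes AARS1 and TARS1, and SLC3A2, the heavy chain of several amino acid exchangers. Each is written 5′ to 3′ in the direction of its gene, from RefSeq (GRCh38.p14), with the motif in capitals. CHAC1 lies at chr15:40953221-40953520 on the plus strand, HERPUD1 at chr16:56931892-56932191 on the plus strand, AARS1 at chr16:70289457-70289756 on the minus strand, TARS1 at chr5:33440715-33441014 and SLC3A2 at chr11:62881449-62881748, both on the plus strand. The peak covers 300 of the 300 promoter bases at AARS1, 285 at CHAC1, 270 at HERPUD1, 239 at SLC3A2 and 181 at TARS1. A match at most places in these promoters would thus lie inside the peak, so the 5 of 5 says little about the sites.
CHAC1: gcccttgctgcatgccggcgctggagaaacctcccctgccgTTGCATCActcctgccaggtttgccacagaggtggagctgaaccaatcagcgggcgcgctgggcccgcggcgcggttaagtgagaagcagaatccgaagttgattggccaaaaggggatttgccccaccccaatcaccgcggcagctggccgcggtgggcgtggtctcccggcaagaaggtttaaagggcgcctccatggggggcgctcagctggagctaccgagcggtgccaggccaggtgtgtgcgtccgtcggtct
HERPUD1: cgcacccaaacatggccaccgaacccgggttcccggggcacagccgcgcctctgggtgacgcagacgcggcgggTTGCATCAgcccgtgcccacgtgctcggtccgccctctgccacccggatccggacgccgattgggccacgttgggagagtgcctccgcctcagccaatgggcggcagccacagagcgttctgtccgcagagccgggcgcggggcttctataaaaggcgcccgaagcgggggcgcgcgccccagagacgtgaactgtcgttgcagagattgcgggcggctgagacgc
AARS1: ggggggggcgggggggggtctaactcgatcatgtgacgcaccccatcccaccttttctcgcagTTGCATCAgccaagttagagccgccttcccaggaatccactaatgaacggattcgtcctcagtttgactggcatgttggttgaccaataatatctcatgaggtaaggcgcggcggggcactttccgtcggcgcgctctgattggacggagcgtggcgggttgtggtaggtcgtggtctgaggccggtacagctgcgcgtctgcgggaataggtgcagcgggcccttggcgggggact
TARS1: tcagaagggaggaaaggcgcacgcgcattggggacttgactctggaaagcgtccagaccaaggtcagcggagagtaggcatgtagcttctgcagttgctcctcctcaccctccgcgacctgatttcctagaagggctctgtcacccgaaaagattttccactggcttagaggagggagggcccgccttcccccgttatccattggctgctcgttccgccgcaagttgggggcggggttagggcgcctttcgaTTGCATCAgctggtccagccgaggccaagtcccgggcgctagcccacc
SLC3A2: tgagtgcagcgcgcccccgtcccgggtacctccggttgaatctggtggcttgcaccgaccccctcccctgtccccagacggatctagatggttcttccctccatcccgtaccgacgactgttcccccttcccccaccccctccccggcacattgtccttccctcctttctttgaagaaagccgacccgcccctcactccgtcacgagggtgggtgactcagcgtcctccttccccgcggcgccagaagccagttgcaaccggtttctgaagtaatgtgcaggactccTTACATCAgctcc

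Set one under the other, the 5 sites with the bases beside them show the same core in 4 genes and a variant in SLC3A2.
CHAC1: ctgccgTTGCATCActcctg
HERPUD1: ggcgggTTGCATCAgcccgt
AARS1: tcgcagTTGCATCAgccaag
TARS1: tttcgaTTGCATCAgctggt
SLC3A2: gactccTTACATCAgctcc
All 5 matched on the strand opposite to the gene, so the gene strand reads TTGCATCA in 4 promoters and TTACATCA in SLC3A2. Distances here are taken from the middle of the site. The HERPUD1 site lay 173 bases before the start and 1 bp from the middle of its peak. In SLC3A2 the site lay 35 bp and in TARS1 39 bp from the middle of the peak, and both fell just after the start. In AARS1 and CHAC1 it lay 184 and 206 bases before the start, and 112 and 137 bp from the middle of the peak.

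The 235 peaks crowded close to the ends. Within 1 kb of an end lay 88 peaks, or 37.4% of the 235 (interval 31.5 to 43.8%), and 147 lay between 1 and 10 kb. By finer steps, 18 peaks lay within 100 bp, 44 from 100 to 500 bp, 26 from 500 to 1000 bp, 25 from 1 to 2 kb, 58 from 2 to 5 kb and 64 from 5 to 10 kb. Each step was read against the share of all bases that lie as far from an end, weighted by the peaks on each chromosome. Peaks within 100 bp were 2.09% of the 860 (interval 1.33 to 3.28%) where 0.279% of bases lie that near, a ratio of 7.51. From 100 to 500 bp the ratio was 4.86, and from 500 to 1000 bp it was 2.44. From 1 to 2 kb it was 1.26 and from 2 to 5 kb 1.14, and in both steps the interval on the peak share held the base share. From 5 to 10 kb the ratio was 0.981, so peaks there were as frequent as bases. Over the whole 10 kb, 27.3% of peaks (interval 24.4 to 30.4%) stood against 18.3% of bases.

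**Figure D1:**
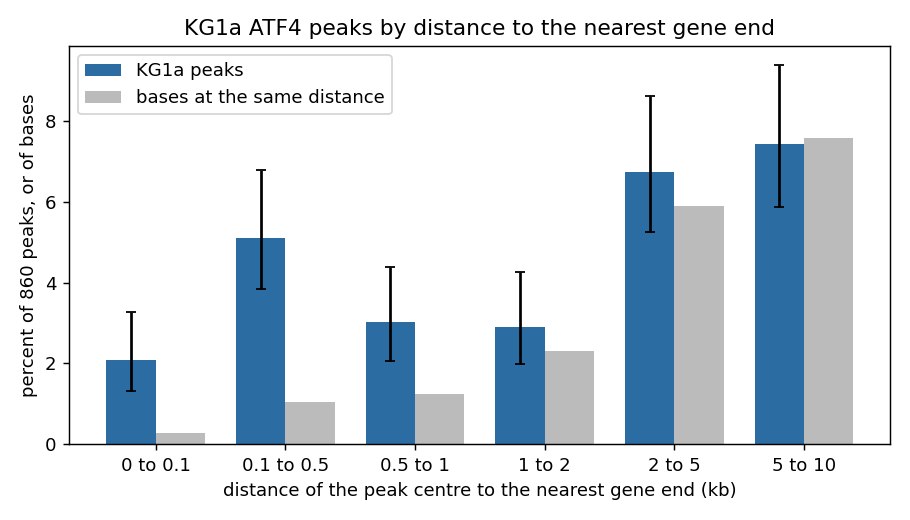
Percent of the 860 KG1a peaks (blue, bars are Wilson 95% intervals) and of bases (grey) at each distance in kb from the nearest protein-coding gene end. The peak share stands above the base share in the 3 steps under 1 kb, and the interval holds the base share in the 3 steps beyond it.

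The 15 peaks nearest to an end lay at genes of varied work. The closest was centred 15 bp outside YARS1, the tyrosyl-tRNA synthetase gene, and the next 17 bp inside EIF2S2, which encodes a subunit of the initiation factor eIF2. COX8A, a subunit of cytochrome oxidase, followed at 18 bp. The peak at TTF1, a factor that ends transcription of ribosomal RNA genes, lay 22 bp from its 3′ end. That at ZNF256 lay 22 bp from its start. NCK1, an adaptor of receptor signalling, had its peak at 30 bp, the chaperonin subunit gene CCT4 at 34 bp, C18orf32 at 35 bp and the peptide hormone gene UCN2 at 38 bp. AP2S1, a subunit of the clathrin adaptor AP-2, followed at 40 bp and AARS1 at 72 bp. The galactokinase-related gene GALK2 had its peak at 77 bp, PDAP1 at 79 bp, CDCA5, which encodes the cohesin protein sororin, at 85 bp and ZFYVE1, whose protein marks sites of autophagosome formation, at 86 bp. At the other limit, the 3 peaks just inside 10 kb lay 9.92 kb from SLC2A5, 9.89 kb from ST3GAL6 and 9.69 kb from SMR3A. The 3 just outside lay 10.2 kb from MAVS, 10.3 kb from DYNC2I1 and 10.3 kb from UBE2D3.

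The crowding lay at gene starts. For 15101 of the 19126 protein-coding genes of these chromosomes a RefSeq promoter entry gave the strand, and with it which outer end is the 5′ end, called the start here. Of the 88 peaks within 1 kb, the nearest end was a start in 59 and a 3′ end in 11, and it belonged to a gene whose strand was not used in 18. Beyond 1 kb, 58 peaks were nearest to a start and 58 to a 3′ end. Counted separately, 60 peaks had their centre within 1 kb of a start, 6.80 times the share of bases there (interval on the ratio 5.32 to 8.65). Within 1 kb of a 3′ end lay 12 peaks, 1.33 times the base share (interval 0.760 to 2.30). From 1 to 5 kb the ratio was 1.20 for starts (interval 0.884 to 1.61) and 1.36 for 3′ ends (interval 1.02 to 1.80). From 5 to 10 kb the ratio was 1.11 for starts (interval 0.825 to 1.48) and 1.56 for 3′ ends (interval 1.21 to 2.0). Over both steps the interval for 3′ ends lay above the base share, from 1 to 5 kb only just, and the interval for starts held it. The difference between them was not tested. The counts for starts and 3′ ends overlap, since 57 peaks lay within 10 kb of a start and of a 3′ end. With each peak counted once, at its nearest end of either kind, the ratios beyond 1 kb were 1.26, 1.14 and 0.981, as given above. The base share includes assembly gaps, where no peak can lie, so every ratio may be too high.

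**Figure D2:**
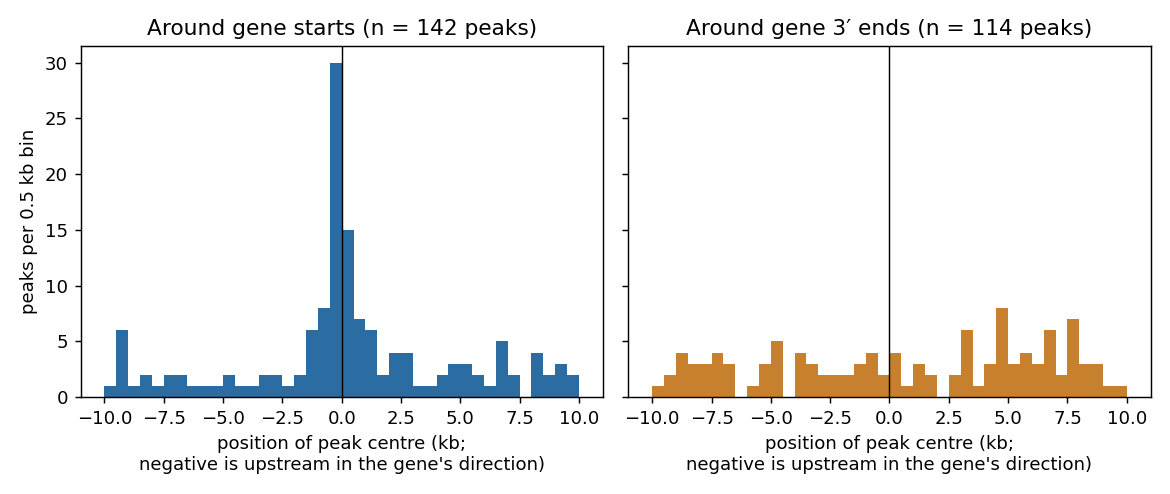
Number of peak centres per 0.5 kb by position in kb along the gene's direction, around the nearest start (left, 142 peaks) and the nearest 3′ end (right, 114 peaks) within 10 kb, for genes with a strand. The 30 peaks in the last 500 bp before a start form the highest bin, with 15 in the 500 bp after it, while 6 peaks in all lie within 500 bp of a 3′ end.

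Most of the peaks at starts were centred before the start. Of the 60, 38 lay upstream and 22 downstream, with a median position 85.5 bp upstream (signed distance -85.5 bp, quartiles -325.5 and 193 bp). The centre fell between 250 bp upstream and 50 bp downstream in 25 of them. MTOR, the nutrient-sensing kinase, had its peak 366 bp upstream of the start at chr1:11262693-11263141, and the peak of STK40, a pseudokinase gene, lay 745 bp upstream. The peak of MTHFD2, a mitochondrial one-carbon enzyme, was centred 612 bp downstream and that of EEF1A1, the main translation elongation factor gene, 398 bp downstream. Among all 235, the centre lay inside the gene with the nearest end in 118 and outside it in 117.

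The outer end of a gene was not always the start in the RefSeq promoter table. SLC3A2 counts among the 235 only through its far end, 7.16 kb away, yet its peak (chr11:62881510-62881900) was centred 6 bp from its RefSeq start. GLMN had a peak 289 bp from its RefSeq start and 52.3 kb from its nearer outer end, and this peak also lay within 1 kb of RPAP2. ZNF892 had one 105 bp from its RefSeq start and 1.06 kb from its outer end. The reverse held at CTNNA3, a catenin gene, whose peak lay 848 bp from the outer end and 68.2 kb from the RefSeq start, at ZFYVE1 with 86 bp and 40.2 kb, and at S100PBP with 811 bp and 7.94 kb. These 3 peaks lay over 1 kb from every RefSeq start, while the other 57 of the 60 peaks at 5′ outer ends were also within 1 kb of one. By RefSeq starts the count was again 60, made of these 57 and of the peaks at SLC3A2, ZNF892 and GSE1. Of them 59 belonged to the 235 and 1, at GSE1, lay deep inside a gene. PFKFB4, a regulator of glycolysis, lay 683 bp by its outer end and -7015 bp by its RefSeq start from a peak that was also at the start of UCN2.

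Shared ends held 12 of the 88 peaks within 1 kb. Here the centre lay within 1 kb of the ends of 2 or more genes, which is 13.6% of the 88 (interval 7.98 to 22.3%), where 8.75% of the bases within 1 kb are shared in this way. In 7 of the 12 both ends were, by strand, the 5′ outer ends of genes running apart, the layout of a bidirectional promoter. The pairs of separate genes were AARS1 with the RNA helicase gene DDX19B, COPS2, a COP9 signalosome subunit, with GALK2, PDAP1 with the splicing factor gene BUD31, CDCA5 with ZFPL1, a Golgi protein, and TXNDC12, an endoplasmic reticulum thiol oxidoreductase, with BTF3L4. In the pairs CCT4 with COMMD1 and the splicing factor gene SF3A1 with CCDC157 the starts were divergent and the first bases of the genes overlapped. The gaps between the 5 separate pairs ran from 124 bp for TXNDC12 and BTF3L4 to 372 bp for PDAP1 and BUD31.

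In 3 of these pairs the peak covered both 5′ outer ends. It did so at AARS1 and DDX19B, whose outer ends lie 261 bp apart, at COPS2 and GALK2, 175 bp apart, and at CDCA5 and ZFPL1, 182 bp apart. The peak centres lay between both ends in these and in the PDAP1 and BUD31 pair. The RefSeq start of DDX19B (chromosome 16, base 70294777) lies farther into that gene and outside the peak, so the 261 bp hold for the outer ends and not for the RefSeq starts. At AARS1 the CARE printed above also fell between both genes. Counted from the edges of the site, 179 bases lay between it and the AARS1 start and 73 between it and the outer end of DDX19B. The centre of the TXNDC12 peak lay inside that gene, 481 bp from its start and 605 bp from the start of BTF3L4.

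Of the other 5 shared ends, the peak between GMPR2, a GMP reductase gene, and TINF2, a telomere protein gene, lay between 2 facing 3′ ends, 253 and 146 bp away. The same held for ZYG11A and ECHDC2, at 489 and 423 bp. UCN2 and COL7A1, the gene of type VII collagen, met start to end, with PFKFB4 also within 1 kb. The strand of at least 1 gene was not used at YARS1 with S100PBP and at TGS1 with TMEM68. Over genes rather than peaks, 38.6% of the 101 with a peak within 1 kb had another gene's end within 1 kb of one of theirs (interval 29.7 to 48.4%), against 29.0% of all. Of 68 genes with a strand and a peak within 1 kb of the start, 15 or 22.1% had a divergent start within 1 kb (interval 13.8 to 33.3%), against 13.9% of all genes with a strand, a value at the edge of the interval. In both counts 1 peak at a shared end counts for each gene it reaches, so the genes are not independent. The intervals take no account of this and may be too narrow. Counted by peaks, the interval of 7.98 to 22.3% given above held the 8.75% of bases.

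Widening the reach to 10 kb brought several genes to one peak. One gene lay within 10 kb of 149 peaks, 2 genes of 65, 3 of 18, 4 of 2 and 5 of 1. The most crowded peak was the one between GMPR2 and TINF2, which also reached NEDD8, its read-through gene NEDD8-MDP1, and TGM1. Conversely 4 genes had 2 peaks each within 10 kb. PCK2, the mitochondrial phosphoenolpyruvate carboxykinase gene, had one 180 bp outside its 5′ outer end (chr14:24093741-24094241, 501 bp wide) and one 1.26 kb beyond its 3′ end (chr14:24105227-24105552, 326 bp wide). ZNF257 had one 215 bp before its start and one inside the gene, 1.39 kb from its 3′ end. NALF1 and LOC124903206, which share both of their peaks on chromosome 13, were the others.

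The genes reached were sorted by 16 gene lists of named function and 10 of a shared symbol start. Within 1 kb, 101 of 19126 protein-coding genes had a peak, or 0.528%, and within 10 kb 342 genes, or 1.79%. At the distances between, 71 genes (0.371%) had one within 500 bp, 130 (0.68%) within 2 kb and 217 (1.13%) within 5 kb, and 626 (3.27%) held one inside the gene or within 10 kb. Among the 20 cytosolic tRNA synthetases, which load amino acids onto tRNAs, 4 had a peak within 1 kb (20.0%, interval 8.07 to 41.6%). These were AARS1, GARS1, TARS1 and YARS1, for alanine, glycine, threonine and tyrosine, and the remaining 16 had none within 10 kb either. None of the 17 mitochondrial synthetases had one, which allows a share of up to 18.4% by the interval. Of 31 enzymes of amino acid synthesis, one-carbon metabolism and the mitochondrial steps beside them, 4 had a peak within 1 kb (12.9%, interval 5.13 to 28.8%). Among these were MTHFD2, PCK2 and GPT2, a mitochondrial alanine transaminase gene with its peak 409 bp outside its low-coordinate end. For the amino acid transporters the count was 1 of 17 within 1 kb (5.88%, interval 1.05 to 27.0%) and 2 within 10 kb. They were SLC7A11, the cystine carrier, with a peak 98 bp from its end, and its heavy chain SLC3A2. Both chains of this exchanger thus had a peak, at 98 bp from an outer end and 6 bp from the RefSeq start.

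Of 35 stress response effectors 2 had a peak within 10 kb, CHAC1 and HERPUD1, both upstream of the start (5.71%, interval 1.58 to 18.6%). Among 45 translation factors, EEF1A1 and EIF2S2 had one within 1 kb and EIF4EBP1, which encodes a repressor of cap-dependent translation, had one 1.01 kb inside its low-coordinate end (2 of 45 within 1 kb, 4.44%, interval 1.23 to 14.8%). Of 30 autophagy genes 2 had a peak within 1 kb (6.67%, interval 1.85 to 21.3%). The ATG2A peak lay 889 bp inside its 3′ end, and the ATG4D peak 758 bp inside an end whose kind was not used. MYC, a growth-promoting transcription factor listed with the stem cell regulators, had a peak 895 bp inside its low-coordinate end (1 of 30, 3.33%, interval 0.591 to 16.7%). APOA1, in the list of genes of other tissues, was the single one of 23 (4.35%, interval 0.772 to 21.0%). PFKFB4 was the single one of 35 hypoxia and glycolysis genes (2.86%, interval 0.506 to 14.5%). A single gene thus put the intervals of the stem cell list and of the list of other tissues above the 0.528% of all genes. The same held for the amino acid transporters, through SLC7A11.

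The ATF and C/EBP family itself had no member of 37 within 1 kb and 1 within 10 kb, DBP, a clock-linked bZIP factor gene with a peak 9.14 kb outside its start. Ribosomal protein genes had 0 of 75 within 1 kb, which allows up to 4.87% by the interval, and RPL17 alone within 10 kb, 1.28 kb beyond its 3′ end. That peak is the one 35 bp from the start of C18orf32, a gene joined to RPL17 in the read-through gene RPL17-C18orf32. Mitochondrial proteostasis and antioxidant genes (0 of 29), myeloid (0 of 20), erythroid (0 of 16) and lymphoid genes (0 of 24) had none within 10 kb. Over the 479 genes of these 16 lists together, 18 or 3.76% had a peak within 1 kb. Of widely cited ATF4 targets, TRIB3 lay 58.3 kb from its nearest listed peak, DDIT4 25.2 kb and ATF5 374 kb. ATF3 held a peak inside the gene, 12.1 kb from its nearer outer end, and so falls outside the 235. ASNS, SESN2, VLDLR, CEBPB and DDIT3 lay 1.48, 3.47, 1.63, 1.27 and 7.09 Mb away, PSAT1 754 kb and the ATF4 gene 372 kb.

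**Figure D3:**
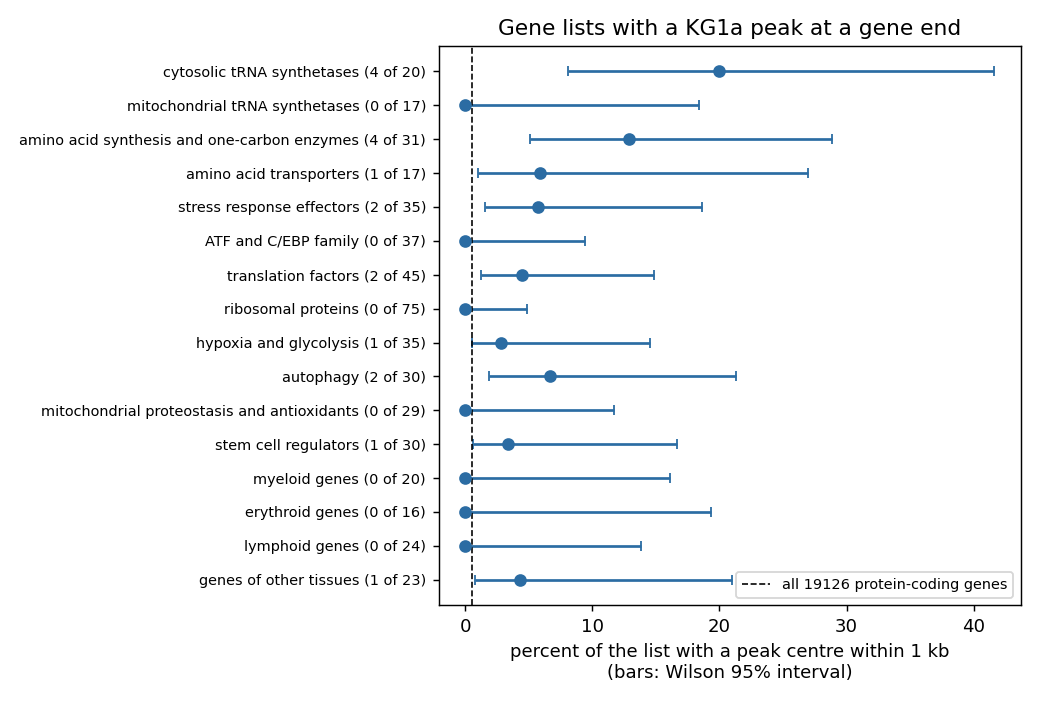
Percent of each named gene list with a peak centre within 1 kb of a gene end, with the Wilson 95% interval as a bar and the count beside the name. The dashed line is the 0.528% of all 19126 protein-coding genes, and the 4 of 20 cytosolic tRNA synthetases and 4 of 31 amino acid and one-carbon enzymes lie farthest to its right.

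Of the 10 gene families set by the start of the symbol, 1 had an interval above the background of 0.528% within 1 kb and 1.79% within 10 kb. The intervals of the other families held these values at both distances. TMEM genes, named for transmembrane segments and not for a shared function, had 4 of 226 within 1 kb, or 1.77% (interval 0.690 to 4.46%), and 8 within 10 kb, or 3.54% (interval 1.80 to 6.83%). They were TMEM41B, TMEM65, TMEM68 and TMEM260 within 1 kb and TMEM86B, TMEM151A, TMEM239 and TMEM255B beyond. Zinc finger genes had 2 of 575 within 1 kb, or 0.348% (interval 0.0954 to 1.26%), and 5 within 10 kb. They were ZNF256 and ZNF257, then ZNF276, ZNF334 and ZNF892. Olfactory receptor genes had 0 of 391 within 1 kb and 2 within 10 kb, OR4A5 and OR5B17. Solute carriers had 3 of 384 within 1 kb, or 0.781% (interval 0.266 to 2.27%), SLC7A11, the choline transporter gene SLC44A1 and SLC22A16. Within 10 kb they had 9, or 2.34% (interval 1.24 to 4.39%). Added by the wider reach were SLC3A2, SLC2A5, SLC6A4, SLC25A29, SLC26A8 and SLC35G2. Mitochondrial ribosomal protein genes had MRPL34 within 1 kb and MRPL28 within 10 kb of 77, proteasome genes PSMA1 within 10 kb of 39, and the RAB, ARHG and RAS families ARHGEF12 and RAB28 within 10 kb of 158. Histone (0 of 74), keratin (0 of 152) and complex I genes (0 of 44) had none within 10 kb.

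Beyond the lists, 81 of the 101 genes within 1 kb were given a class of function from general knowledge, after the genes were seen. Transcription and chromatin was the largest class with 11 genes, among them MYC, the Mediator subunit MED30, the chromatin remodeller BAZ1B and the Polycomb protein PCGF1. RNA processing and export had 9, such as SF3A1 and BUD31 of the spliceosome, THOC1 of the mRNA export complex and the Integrator subunit INTS10. Ubiquitin, NEDD8 and protein turnover had 8, among them UBA3, the NEDD8-activating enzyme, COPS2, and the deubiquitinases USP33 and USP36. Signalling kinases and adaptors also had 8, with MAPK14, the stress kinase p38 alpha, NCK1 and SH2B3. Vesicle traffic, Golgi and lysosome had 7, among them the coatomer subunit COPB1 and AP2S1. The classes tied to amino acids and stress were smaller, with 4 genes each. One was tRNA charging, and another was amino acid synthesis, one-carbon and linked mitochondrial enzymes. The last was glutathione, cystine transport and endoplasmic reticulum stress. Autophagy had 4 with TMEM41B and ZFYVE1. These classes have no background count, so no excess can be read from them.

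Wide peaks were most frequent within 1 kb of an end. The 235 had a median width of 348 bp (quartiles 327 and 386.5 bp), against 337 bp for the 296 peaks deep inside genes and 340 bp for the 329 distal peaks outside them. At least 500 bp wide were 25 of the 235, or 10.6% (interval 7.31 to 15.2%), against 13 of 296 or 4.39% (2.58 to 7.37%) and 13 of 329 or 3.95% (2.32 to 6.64%). Within 1 kb of an end it was 14 of 88, or 15.9% (interval 9.72 to 24.95%). From 1 to 10 kb it was 11 of 147, or 7.48% (interval 4.23 to 12.9%), which overlaps the intervals of the deep and distal peaks. The interval of all 235 also just meets that of the deep peaks. The widest of the 235, 1183 bp, covered the start of EEF1A1 at chr6:73520043-73521225 and stood at place 1 of the deposited list. It was followed by peaks of 881 bp near CYP1A2, a drug-metabolising cytochrome gene, 775 bp at C18orf32, 753 bp at CHAC1, 666 bp near TMEM239 and 649 bp near WNT11. Peaks of 646 bp at CTNNA3, 604 bp at TMEM260, 586 bp at GALNT9 and 581 bp at DUSP11 completed the 10 widest. Of these 10, the peaks of CYP1A2, TMEM239, WNT11 and GALNT9 lay 4.38 to 8.38 kb from the nearest end and the other 6 within 1 kb.

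**Figure D4:**
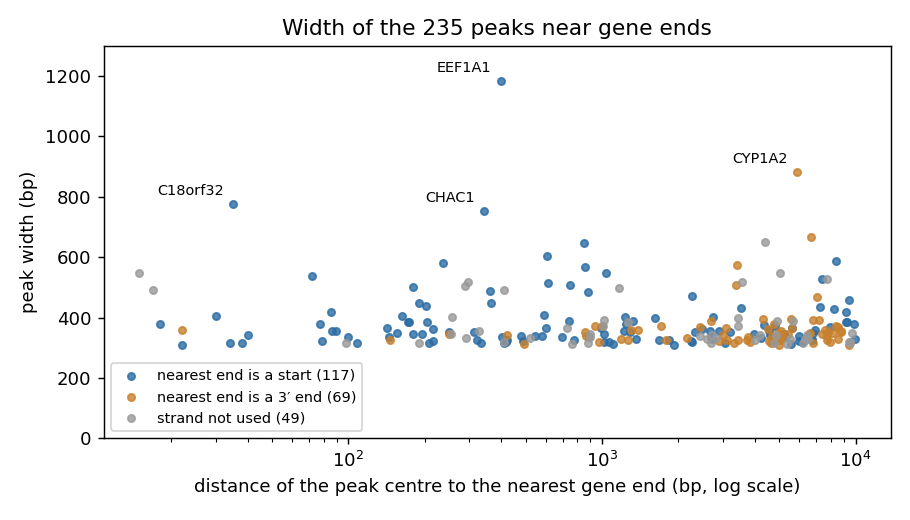
Width in bp of each of the 235 peaks against the distance of its centre to the nearest gene end (log scale), coloured by the kind of that end. The quartiles of width are 327 and 386.5 bp, and EEF1A1 at 1183 bp stands above all others.

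Peaks near ends stood early in the deposited list. Its order is not explained by its 3 columns, and what it follows was not tested. Of the first 20 places 18 lay on chromosomes 1 to 22, and 12 of these were within 10 kb and 10 within 1 kb of an end. The 10 had as nearest genes EEF1A1, CSF3, CHAC1, YARS1, STK40, GPT2, AARS1, MTHFD2, GARS1 and PCK2. Of these, 7 belong to the tRNA synthetase, amino acid or stress lists. Among all 101 genes with a peak within 1 kb, these lists held 4 synthetases, 4 enzymes, 1 transporter and 2 stress effectors. The lists were chosen with earlier results of these data known, so the 7 are no independent support. CSF3, the gene of the granulocyte growth factor G-CSF, had a 517 bp peak at place 5, 296 bp inside its high-coordinate end. The 88 peaks within 1 kb had a median place of 246.5, the 147 between 1 and 10 kb 432, the peaks deep inside genes 430 and the distal peaks 486. In 4 equal stretches of the list, from its top, the share within 10 kb was 34.8, 28.7, 21.6 and 24.5%, while the number from 1 to 10 kb was 35, 39, 37 and 36. The number from 1 to 10 kb was thus level along the list, while the total was not.

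Promoters with a peak were mostly rich in CpG. Of the 67 RefSeq promoters with a peak centre within 1 kb of the start, 61 or 91.0% (interval 81.8 to 95.8%) had a CpG observed over expected ratio of at least 0.6, against 66.3% of all 15101. With the peak centre 1 to 10 kb from the start it was 95 of 120, or 79.2% (interval 71.1 to 85.5%). The median GC content was 65.0% in the 67 and 63.0% in all. Promoter CpG content and distance to a peak thus moved together, and the part of the one in the other was not tested.

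The CARE was in 5 of the 67 promoters, 7.46% (interval 3.23 to 16.3%), against 386 of 15101 or 2.56%. Where the peak centre fell inside the promoter window it was in 4 of 27, or 14.8% (interval 5.92 to 32.5%), and with the centre 1 to 10 kb from the start in 3 of 120, or 2.50%. With the free base set to C (TGATGCAA) the shares were 4 of 67, or 5.97%, and 0.669% of all. The 5 genes all belong to the lists of synthetases, transporters and stress effectors, which were chosen with earlier results of these data known. Among the genes of the 16 lists with a peak within 1 kb of the RefSeq start, the windows of GARS1, PCK2, EEF1A1 and MTHFD2 held no match. The peak shared 84 bases with the window at GARS1, 181 at PCK2 and 243 at EEF1A1, and the MTHFD2 peak did not reach its window. Peaks of other genes among the 67, such as STK40 and MAPK14, did not reach theirs either. Peak sequence outside the windows was not searched, so a window without a match does not mean a peak without one. The CRE (TGACGTCA), a site of ATF and CREB dimers, was in 2 of the 67, or 2.99%, against 2.65% of all. A loose AP-1 pattern (TGANTCA, with any base in the middle) was in 5 of 67, or 7.46%, against 5.70%. In both cases the interval held the value of all promoters. AP-1 sites in the strict sense were not counted apart. Both strands were searched. TGATGCAA is a case of TGATGNAA, and the CRE and the AP-1 pattern are no case of either.

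**Figure D5:**
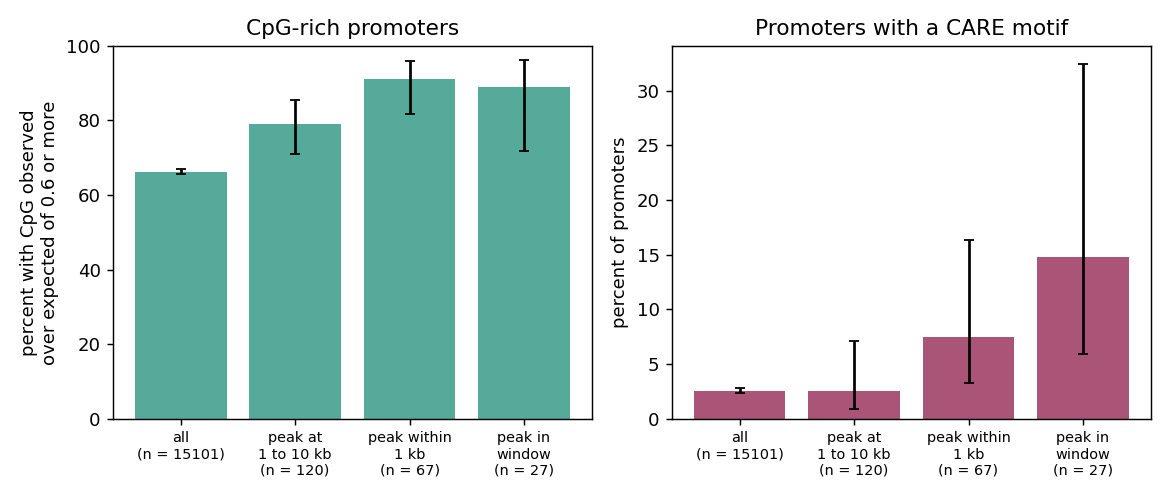
Percent of RefSeq promoters with a CpG observed over expected ratio of at least 0.6 (left) and with a CARE (right), for all promoters and by distance of the nearest peak centre, with Wilson 95% intervals. Both shares are higher with a peak within 1 kb (91.0 and 7.46%) than in all promoters (66.3 and 2.56%).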

How the data were processed

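ATF4 ChIP-seq of KG1a cells gave 1 deposited peak list. The submitters' processing notes name the build GRCh38 and the tools Bowtie2, MACS2, deepTools and CASAVA 1.4. Their settings and peak threshold are not given in the sources used here. This list holds 3 columns, per the file itself the chromosome, start and end in bases, with no header or score, and the depth is unknown. Its 9 peaks on chromosome X and 4 on scaffolds were left out by the rule. Starts, counted from 0 in the deposited list, are printed counted from 1. Peaks were placed against 19126 protein-coding genes of RefSeq GRCh38.p14 with Python 3.11.15 (numpy 2.4.6, scipy 1.17.1). The base share is the share of bases between the first and last such gene of a chromosome at a given distance from an end, with assembly gaps included. No peak can lie in a gap, so the ratios of peak share to base share may be too high. Promoter entries, matched by gene ID, gave strand and sequence for 15101 genes. For 2468 of them the start lay off the outer end.

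Deep peaks lay inside a gene and distal ones outside, both over 10 kb from every end. The members and the 26 gene lists were chosen with earlier results of these data known, so their counts are no independent support. Genes were named if on a list with a peak within 10 kb, among the 15 nearest or 10 widest peaks, at a shared end, with 2 peaks, at the 10 kb limit, or among 12 known targets. Others named as examples of a class of function, at the RefSeq starts or early in the list were chosen after their values were seen. The values of 1 gene on these lists are not reported here. Code was tested on simulated data. Alternatives were other distances, peak edges, chromosome X, the widest 25%, lncRNA ends and, added later, list order and RefSeq starts.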

Additional observations from a re-analysis of the deposited data

How the results depend on the processing

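No paired analysis was possible because each group had 1 library. The share of peaks within 10 kb (27.3%) was 10.2% within 1 kb, 13.1% within 2 kb, 19.9% within 5 kb and 40.0% within 20 kb, as the reach sets it. It was 39.7% with lncRNA ends added (30.4% of bases), 35.9% in the widest 25% of peaks and 34.8% in the first 25% of the list order, an alternative chosen after seeing the data. Peak edges gave 27.3%, chromosome X 27.4% and added RefSeq starts 28.3%. The share of these peaks within 1 kb (37.4%) was 52.1% in the first 25% of the order, and from 37.4 to 43.6% in the other 3 settings. Peaks at shared ends (5.11% of the 235) became 19.1% with a 5 kb reach. They were from 3.83 to 8.22% in the other 4 settings. The 101 genes within 1 kb became 217 within 5 kb, 38 in the widest 25% and 44 in the first 25% of the order. The 342 genes within 10 kb became 108 and 111 in those same 2 settings. The share of promoters with a CARE stayed inside its interval in the 3 settings run. Of 39 list counts at other distances, 15 moved by over 1.5 times. Both 25% settings keep fewer peaks, so fewer genes can be reached. Without scores, depth or replicate libraries no single peak has a precision, and a peak below the caller's threshold is not in the list.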

Other observations

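Of the 235 peaks near protein-coding gene ends 3 overlapped a tRNA gene, or 1.28% (Wilson 95% interval 0.435 to 3.69%). The count was 0 of the 296 peaks deep inside genes, which allows up to 1.28%, and 0 of the 329 distal peaks, which allows up to 1.15%. These intervals overlap, the difference was not tested, and the share of tRNA genes that lie near such ends was not computed. TRS-TGA1-1 lay under the 646 bp peak that was named above for CTNNA3 (chr10:67764119-67764764, place 23), 848 bp from that gene. TRK-TTT3-2, a lysine tRNA gene, lay under a 459 bp peak 9.42 kb from MDM4, and TRA-CGC1-1, an alanine tRNA gene, under a 391 bp peak 6.81 kb from HMGN4. The 775 bp peak at C18orf32 overlapped the microRNA gene MIR1539. Within 1 kb of an end of a long non-coding RNA gene lay 25 of the 235, or 10.6% (interval 7.31 to 15.2%), against 10 of the 296, or 3.38% (1.84 to 6.11%), and 12 of the 329, or 3.65% (2.10 to 6.27%). For overlap with any stretch of such a gene the order differed, with 33 of the 235, or 14.04% (interval 10.2 to 19.1%), 29 of the 296, or 9.80% (6.91 to 13.7%), and 86 of the 329, or 26.1% (21.7 to 31.1%). The groups were set by distance to protein-coding gene ends. The share of bases at long non-coding RNA genes was not computed for each group, so no excess can be read from these shares.

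Chromosome 11 held 30 of the 235 peaks, 53.6% of its own 56 (Wilson 95% interval 40.7 to 66.0%), where 22.7% of its bases lie within 10 kb of an end, a ratio of 2.36. On gene-dense chromosome 19 the share was as high, 16 of 29 or 55.2%, but there 52.3% of bases lie that near. Chromosome 21 had none of 9, which allows up to 29.9%. The interval lay above the base share on 7 of 22 chromosomes and below it on none. These chromosomes were singled out after their values were seen, and no difference between chromosomes was tested.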
